A study of Homo sapiens with 42 samples.

Results

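The breast carcinoma line DU4475 was profiled by ATAC-seq after 4 h with FHT-1015 or with the solvent DMSO as negative control. These are 6 of the 42 samples of the study, chosen as those whose titles begin with the name of the line, and they form 2 groups of 3 biological replicates. FHT-1015 inhibits SMARCA4 and SMARCA2. All 6 samples carry the genotype label WT, the cell type label invasive breast carcinoma and the same time of 4 h, so the labels separate the groups by treatment alone. The other 36 samples are 6 further cancer lines under the same treatments. Each sample has its own list of accessible peaks. The description turns on regions called in all 3 samples of 1 group and in none of the other: 4132 such regions on the DMSO side and 2576 on the FHT-1015 side, of 562615 regions in the 6 lists.

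SMARCA4 and SMARCA2 are the alternative ATPase motors of the BAF complexes, which slide or evict nucleosomes and so expose DNA to transcription factors. BAF activity is known mostly from enhancers, distal elements bound by cell-type-specific factors, whereas many CpG-rich promoters stay open with less need of it. ATAC-seq reads this state through a transposase that inserts adapters into exposed DNA. DU4475 was derived from a skin metastasis of a breast cancer, lacks oestrogen receptor, progesterone receptor and HER2, and carries a truncating APC mutation and an activating BRAF mutation. TFAP2C and GATA3 are transcription factors of breast epithelium.

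A region is a window of 500 bp around a summit, and a sample has it when a peak overlaps it by at least 100 bp. The lists go down to a p of 0.01, so a second reading used only strict peaks, those with a −log10 q of at least 5. "Lost" below means called in 3 of 3 DMSO samples and 0 of 3 FHT-1015 samples, and "gained" the reverse. "Strict lost" applies the same rule to strict peaks alone, so a weaker peak may remain. "Firm lost" asks for a strict peak in all 3 DMSO samples and no FHT-1015 peak of any strength that overlaps the region by 100 bp. An FHT-1015 peak may still touch its edge. These are names of calls, not outcomes of a test. A gene end is either end of a protein-coding gene in RefSeq. Fold enrichments are the authors' and rank peaks only within their own list. In bulk lists, fewer cells open at a region and weaker opening in each cell cannot be told apart.

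Promoter windows from RefSeq (GRCh38.p14, 250 bases before to 50 after a start site) show the kind of start site that was lost, kept or gained. The first pair holds start sites of a lost region (MBNL2) and of a strict lost region that kept weaker peaks (CHRNA1), and is shown for the motif in capitals, TGANTCA (AP-1) in MBNL2 and CAGCTG (an E-box) in CHRNA1. MBNL2, a regulator of RNA splicing, has its window at chr13:97141584-97141883 on the plus strand. CHRNA1, a subunit of the muscle acetylcholine receptor, has its window at chr2:174764423-174764722 on the minus strand.
MBNL2: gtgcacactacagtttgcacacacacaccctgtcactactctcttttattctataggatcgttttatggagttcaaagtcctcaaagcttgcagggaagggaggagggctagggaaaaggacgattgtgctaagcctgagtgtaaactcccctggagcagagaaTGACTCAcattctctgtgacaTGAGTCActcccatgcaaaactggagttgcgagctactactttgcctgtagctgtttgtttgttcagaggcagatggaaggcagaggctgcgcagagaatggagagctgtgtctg
CHRNA1: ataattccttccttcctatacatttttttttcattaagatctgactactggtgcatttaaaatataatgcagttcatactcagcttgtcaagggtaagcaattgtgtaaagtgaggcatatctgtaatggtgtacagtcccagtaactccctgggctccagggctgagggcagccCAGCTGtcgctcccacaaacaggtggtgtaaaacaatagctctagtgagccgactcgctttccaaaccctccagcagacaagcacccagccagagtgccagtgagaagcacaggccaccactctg
The next 3 windows have the letters GGGCGG (the KLF and SP box), read on both strands, in capitals. PAM, the enzyme that amidates peptide hormones, has a lost and a kept start site close together, at chr5:102754533-102754832 and chr5:102755055-102755354 on the plus strand. NMRK2, a nicotinamide riboside kinase, has a gained one at chr19:3933339-3933638 on the plus strand.
PAM, lost start site: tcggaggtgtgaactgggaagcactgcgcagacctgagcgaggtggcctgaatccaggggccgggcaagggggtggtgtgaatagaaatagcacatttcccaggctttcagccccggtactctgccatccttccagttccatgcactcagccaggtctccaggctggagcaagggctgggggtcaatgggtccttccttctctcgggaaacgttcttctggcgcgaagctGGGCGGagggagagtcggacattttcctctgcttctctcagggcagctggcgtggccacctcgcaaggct
PAM, kept start site: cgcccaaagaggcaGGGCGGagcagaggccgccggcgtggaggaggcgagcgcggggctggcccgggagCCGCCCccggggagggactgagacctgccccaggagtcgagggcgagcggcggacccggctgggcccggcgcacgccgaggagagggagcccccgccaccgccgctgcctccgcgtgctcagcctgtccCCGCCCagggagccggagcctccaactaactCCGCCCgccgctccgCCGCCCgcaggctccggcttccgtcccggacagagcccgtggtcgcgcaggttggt
NMRK2: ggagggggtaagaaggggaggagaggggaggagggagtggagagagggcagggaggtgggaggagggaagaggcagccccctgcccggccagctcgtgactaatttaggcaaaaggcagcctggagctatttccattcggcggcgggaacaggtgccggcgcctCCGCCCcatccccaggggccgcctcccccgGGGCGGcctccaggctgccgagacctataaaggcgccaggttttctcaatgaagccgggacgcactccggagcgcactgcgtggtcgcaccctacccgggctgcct

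The kept PAM window holds 39 CG dinucleotides and 5 runs in capitals, against 13 and 1 in the lost window upstream of it. MBNL2 has 4 CG dinucleotides and 2 AP-1 matches, CHRNA1 has 3 and 1 E-box, and NMRK2 has 20 and 2 GGGCGG runs. At the MBNL2 start site, the fold enrichments of the DMSO samples were 7.05, 5.22 and 6.07, and no FHT-1015 list had a peak there. The nearest FHT-1015 interval lay 6763 bp away. CHRNA1 gave 8.73, 7.49 and 6.22 in DMSO and weaker summits of 3.69, 3.50 and 2.70 in FHT-1015, none of them strict. The lost PAM region gave 5.63, 5.63 and 5.31 in DMSO with no FHT-1015 peak in the region, although an FHT-1015 interval touched its edge. The gained NMRK2 region had 3.07, 3.17 and 3.31 in FHT-1015 and no DMSO peak, and none of these was strict.

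The 6 lists held 192123 to 264674 peaks, of which 34566 to 64475 were strict, and between 51.0% and 72.3% of a list had q below 0.05. The lists give no read depth. As a stand-in, the background pileup recovered from the deposited values was 1.98, 2.40 and 2.01 in DMSO and 2.25, 2.79 and 1.41 in FHT-1015, so FHT-1015 replicate 3 was the shallowest. DMSO replicate 1 stood apart with 27959 strict peaks beyond 10 kb of a gene end, against 16740 and 16464 in the other DMSO samples. Between samples, 0.0342% to 0.0583% of intervals were identical, so no library appears again under another label. Peaks on chromosome 1 made up 13.2% to 15.1% of the DU4475 lists and 8.21% to 12.2% of the lists of the other lines. At the markers, strict intervals within 1 kb of TFAP2C numbered 2, 2 and 4 in DMSO and 2, 2 and 1 in FHT-1015. GATA3 had 1, 1 and 0 in DMSO and 0 in each FHT-1015 sample. All samples of A375 and MV411 also had a strict interval at TFAP2C, so the 2 markers do not set these lists apart as breast.

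The comparison of the 2 groups asks how inhibition of the BAF ATPases altered accessible DNA in this line. The lists as deposited had 239670, 225368 and 220533 peaks in DMSO and 247866, 264674 and 192123 in FHT-1015, and the groups overlapped (exact permutation test, two-sided, p = 0.9). Strict peaks numbered 64475, 50930 and 48864 in DMSO and 41684, 45254 and 34566 in FHT-1015. Every FHT-1015 sample lay below every DMSO sample, with means of 54756 ± 8480 and 40501 ± 5441 (SD, n = 3 each). The groups overlapped at a −log10 q of at least 10 (DMSO from 31696, FHT-1015 up to 31955) and at q below 0.05 (from 147473 and up to 149646), with an exact permutation p of 0.2 for each. At the strict threshold the exact two-sided p was 0.1, the smallest that 3 against 3 samples allow, so no comparison of these 6 samples can pass 0.05. Whether the replicates came from separate cultures is not stated beyond the label, so such p-values measure only the spread between these samples. The difference of the means, FHT-1015 minus DMSO, was -14255 strict peaks and -9396 without DMSO replicate 1.

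Most of that difference lay far from gene ends. Strict peaks beyond 100 kb of any gene end numbered 9027, 4825 and 4631 in DMSO and 2663, 3227 and 1742 in FHT-1015. Between 10 and 100 kb the counts were 18932, 11915 and 11833 against 8667, 9691 and 6463. In both classes the groups did not overlap, and the FHT-1015 means differed from the DMSO means by -58.7% and -41.8% (exact permutation p = 0.1 for each). Within 1 kb of a gene end the counts were 26447, 26230 and 24864 against 23675, 25019 and 21074. There the FHT-1015 mean differed by -10.02%, and FHT-1015 replicate 2 lay above DMSO replicate 3 (exact permutation p = 0.2). Without FHT-1015 replicate 3, the difference of -2591 peaks near gene ends was -1500. Beyond 10 kb, the difference of -9570 peaks was -5784 without DMSO replicate 1. With pileups thinned to a common background, the distal counts were 21175, 11689 and 13104 against 9394, 8793 and 11717, and FHT-1015 replicate 3 overlapped the DMSO samples (exact permutation p = 0.2).

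**Figure D1:**
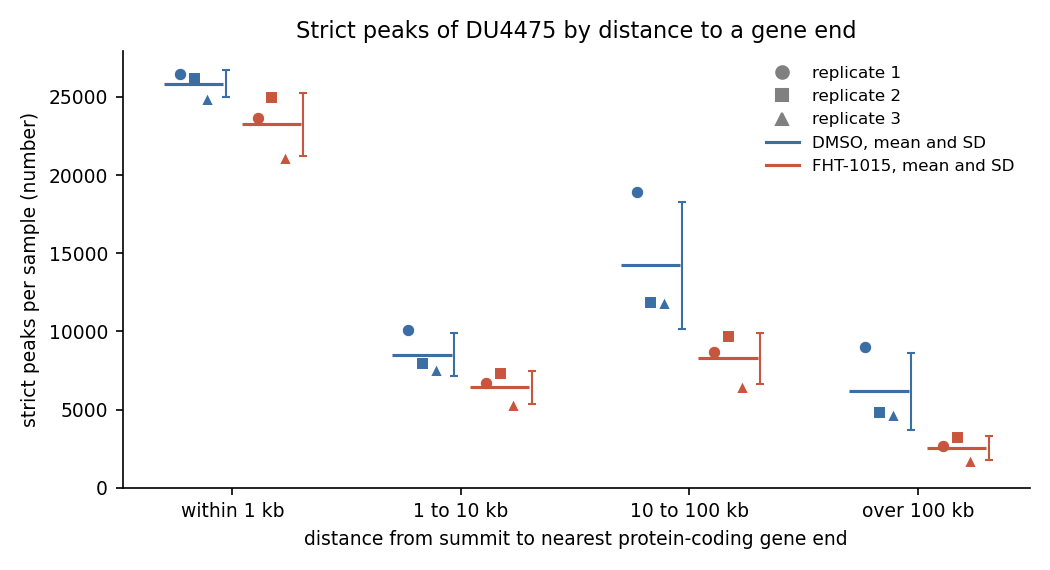
Strict peaks of each DU4475 sample by the distance from the summit to the nearest protein-coding gene end. Marker shape gives the replicate, lines and bars the mean and SD of 3 samples; the FHT-1015 samples lie below all DMSO samples in the 3 classes beyond 1 kb, and DMSO replicate 1 is highest in each of these.

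The share of strict peaks within 1 kb of a gene end was 41.02%, 51.5% and 50.9% in DMSO and 56.8%, 55.3% and 61.0% in FHT-1015. The groups did not overlap (exact permutation p = 0.1), and the difference of 9.88 percentage points was 6.49 without DMSO replicate 1. The share turned on the threshold: in lists cut to the 192123 peaks of the shortest list, it was 18.7%, 19.1% and 18.6% in DMSO and 17.4%, 18.1% and 16.9% in FHT-1015. There too the groups did not overlap, but in the opposite direction (exact permutation p = 0.1). Among the 10000 strongest peaks of each list it was 79.7%, 81.2% and 80.8% against 80.9%, 81.3% and 80.1%, with overlap (exact permutation p = 0.6). The strongest peaks thus lay at gene ends to about the same extent in all 6 lists.

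Of 62014 regions called in all 3 DMSO samples, 4132 (6.66%) were lost, and of 51401 called in all 3 FHT-1015 samples, 2576 (5.01%) were gained. Both sets were made of weak peaks: the median of the lowest percentile among the 3 own lists was 30.6 for lost and 20.8 for gained regions, against 77.1 for all regions shared by DMSO. Only 1478 lost and 90 gained regions had a strict peak in any sample of their own group. With strict peaks the sets parted. Strict lost regions numbered 2187 of 31190 (7.01%), and strict gained regions 41 of 25027 (0.164%). Firm lost regions were 201 (0.644%) and firm gained regions 9 (0.036%).

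A strict call needs only an overlapping strict interval, and 1985 of the 2187 strict lost regions had a summit of their own in all 3 DMSO samples. Few were empty after treatment. Of the 2187, only 201 were called in no deposited FHT-1015 list, 351 in 1, 686 in 2 and 949 in all 3. Intervals of FHT-1015 touched 2086 of them and lay within 250 bp of 2132. The same holds for firm lost regions, of which 146 of 201 had an FHT-1015 interval within 250 bp and 33 had none within 1 kb. Leaving out DMSO replicate 2 or 3 gave 4256 and 4044 strict lost regions, where fewer samples had to agree. After thinning, 1070 regions were lost and 75 gained, and 488 of the 2187 strict lost regions (22.3%) were among the former. Of the lost and gained regions of the deposited lists, 99 (2.40%) and 7 (0.272%) were in the thinned sets. Asking for an overlap of 250 bp kept 1298 lost (31.4%), 442 gained (17.2%) and 1848 strict lost regions (84.5%). Most single members of the lost and gained sets, and so the genes named from them, thus depend on these settings.

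That place was far from genes. Lost regions lay a median of 44.1 kb from the nearest gene end and strict lost regions 47.3 kb, against 0.76 kb for all strict regions shared by DMSO. Within 1 kb of a gene end lay 129 strict lost regions (5.90%, exact binomial 95% interval 4.95 to 6.97, counting error only), against 53.2% of the shared ones. The share was larger in stricter sets, with 115 of 1070 (10.7%) for thinned lists and 46 of 201 (22.9%) for firm lost regions, whose median distance was 24.3 kb. Read the other way, 0.777% of strict shared regions within 1 kb of a gene end were strict lost, 6.33% at 1 to 10 kb, 15.01% at 10 to 100 kb and 26.0% beyond 100 kb. The order of these 4 shares was the same with thinned lists (0.739%, 4.95%, 10.7% and 22.8%) and with any 1 of the 6 samples left out. Distal loss was shared between genes and the space between them: beyond 10 kb, 830 strict lost regions lay inside a protein-coding gene and 916 outside. For all strict regions shared by DMSO the counts were 4788 and 4865, a like split. By chromosome, the strict lost share was highest on chromosomes 4 (13.3%), 2 (12.1%) and 13 (11.8%) and lowest on 22 (0.316%) and 19 (0.358%). The chromosomes were not matched for the distance of their regions to gene ends.

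**Figure D2:**
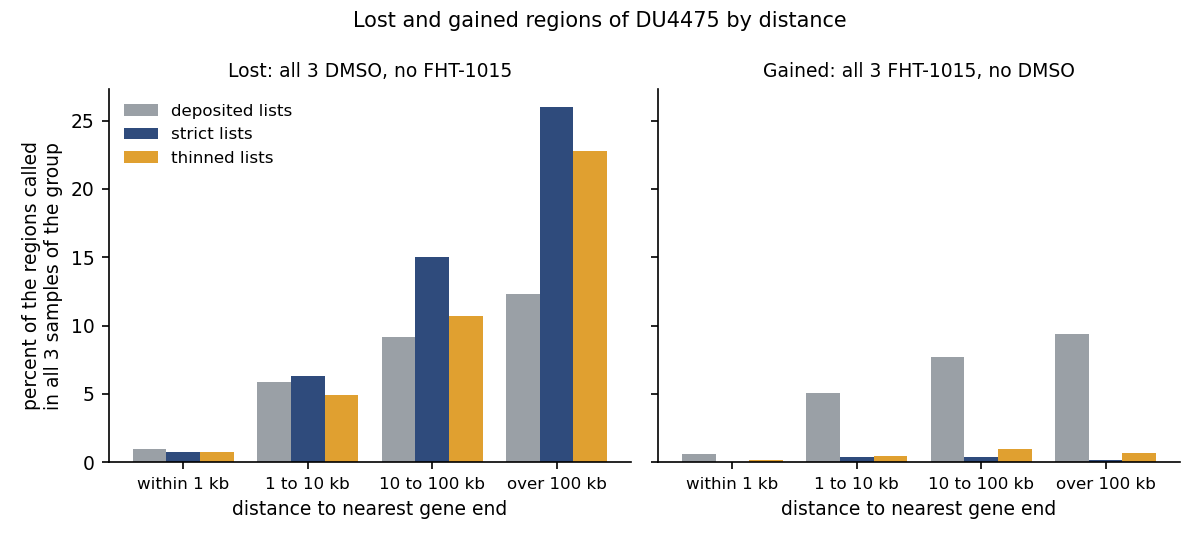
Percent of regions called in all 3 samples of a group that had no call in the other group, by distance to a gene end, for the lists as deposited, strict peaks and lists thinned to a common background. Lost shares grow with distance to 26.0% of strict regions beyond 100 kb, while strict gained shares stay at or under 0.361%. In the lists as deposited both shares grow with distance, to 12.3% lost and 9.41% gained beyond 100 kb.

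Strength in DMSO and distance went together with loss. Percentiles here are those of the weakest of the 3 DMSO summits within its own list. No strict shared region above percentile 95 was strict lost, whether within 1 kb of a gene end (0 of 5698) or beyond 100 kb (0 of 79). At percentiles 85 to 90 the strict lost share was 0.277% within 1 kb and 12.9% beyond 100 kb. At percentiles 75 to 80 it was 4.02% and 48.1%. Distal regions of a given rank were thus called strict lost more often than regions of like rank at gene ends, in each of the 5 rank classes below percentile 95. A weaker peak crosses the strict threshold with a smaller change, so these shares describe calls and not the size of a change.

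**Figure D3:**
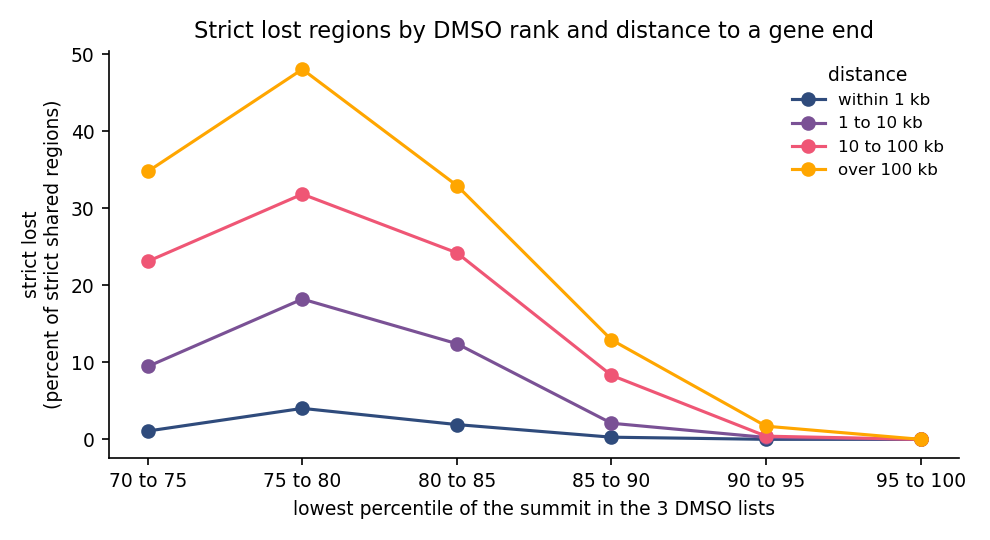
Percent of strict regions shared by the 3 DMSO samples that were strict lost, by the lowest percentile of their summit in the DMSO lists and by distance to a gene end. The line for regions beyond 100 kb reaches 48.1% at percentiles 75 to 80, and all 4 lines are at 0 above percentile 95.

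The strict lost region that ranked highest in DMSO lay at chr1:221082782-221083281, 198.0 kb from HLX, which encodes a homeodomain factor. Its fold enrichment was 9.32, 7.96 and 7.69 in DMSO and 2.18, 2.99 and none in FHT-1015. Next to KCNC2, a voltage-gated potassium channel, the DMSO values at chr12:75011086-75011585 were 14.9, 9.40 and 12.2, and the FHT-1015 lists held 3.07, 3.70 and none. The region 35.6 kb from GRB14, an adaptor of the insulin receptor, had 10.6, 8.97 and 9.83 against 2.77, 2.90 and none. In these 3 regions FHT-1015 replicate 3 had no summit and the other FHT-1015 samples kept a weak one.

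NR5A2, a nuclear receptor, held an intragenic region 1.83 kb from a start site with 5.71, 4.52 and 5.48 in DMSO and 2.16, 2.30 and 2.82 in FHT-1015. Far from TBL1XR1, a part of the NCoR corepressor, a region 395.3 kb away had 8.19, 8.41 and 8.18 in DMSO and none, 4.22 and 3.71 in FHT-1015. A further 6 of the regions ranked highest lay nearest GCSAML, SPAG16, CTNNA2, ZNF385B, MFSD6 and CCDC148. All of the regions named here touched an FHT-1015 interval.

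Of the 12 firm lost regions named by rank, 3 lay over 2 kb from any FHT-1015 interval. Near HTR7, a serotonin receptor gene, chr10:90458531-90459030 had DMSO folds of 6.70, 6.47 and 6.64 and lay 282.0 kb from the gene. Near HINT3, a nucleotide hydrolase, chr6:125952997-125953496 had 5.70, 4.59 and 5.16. The other lay 2416 bp from an FHT-1015 interval, near the uncharacterised LOC107986012, with 6.78, 5.54 and 5.34. KCNK1, a potassium leak channel, had the highest rank of the 12, with 8.03, 6.35 and 6.21 at 49.0 kb from the gene. The region nearest RARRES1, a gene known for its response to retinoic acid, had 5.96, 5.28 and 5.91. The remaining firm lost regions lay nearest SFXN5, MAGI2, DISC1, OR2T1, CHCHD2, CAB39 and RPS29, 0 to 455 bp from an FHT-1015 interval.

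**Figure D4:**
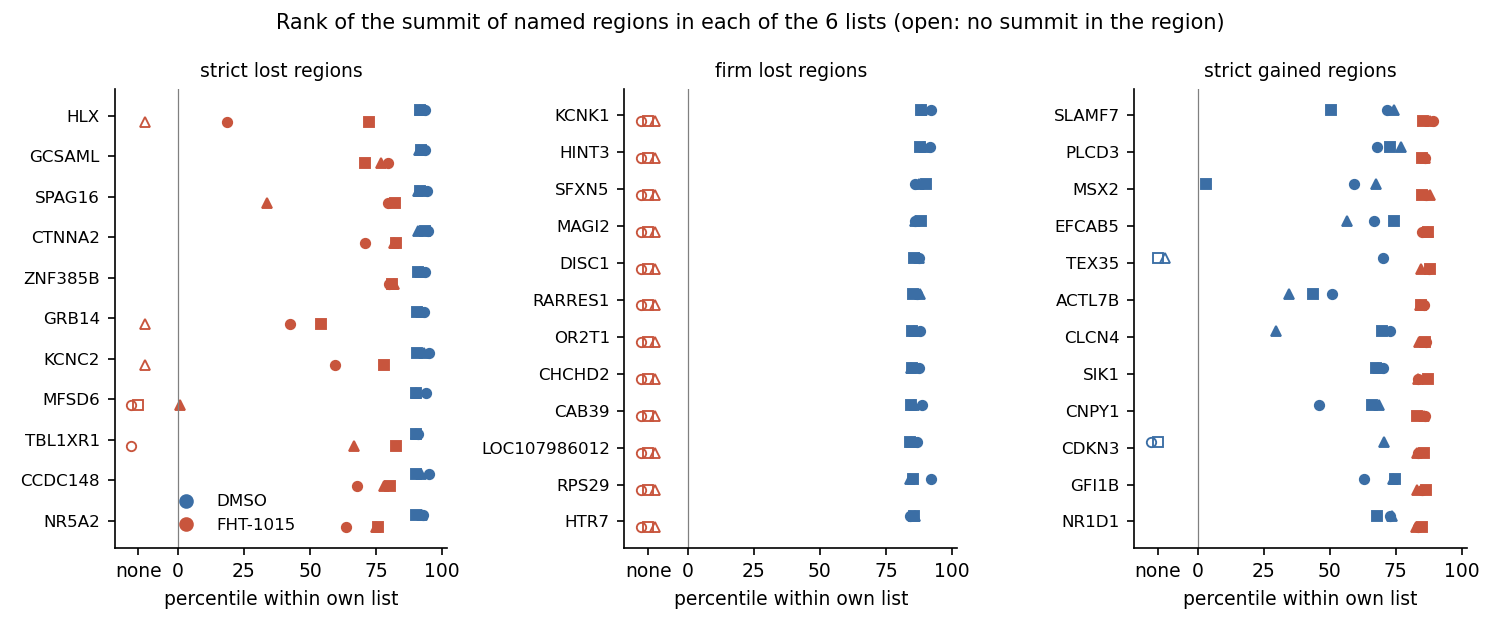
Percentile of the summit within its own list in each of the 6 DU4475 samples, for the named strict lost, firm lost and strict gained regions, labelled by the nearest gene end. Blue is DMSO, red is FHT-1015, marker shape is the replicate and open markers mean no summit in the region; strict lost regions sit near percentile 90 in DMSO and spread downward in FHT-1015.

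Loss at gene ends was rare. Of 18600 regions that all DMSO samples had within 1 kb of a gene end, 186 were lost, and of 16606 strict ones, 129 were strict lost. C9, a component of the complement attack complex, had a lost region 0.66 kb from a gene end with 7.04, 4.996 and 5.31 in DMSO, and the nearest FHT-1015 interval lay 14192 bp away. SKP1, a subunit of SCF ubiquitin ligases, had 4.34, 3.26 and 3.04 at one end, with an FHT-1015 interval 63 bp off. ITGA1, the collagen-binding integrin alpha 1, had 6.16, 4.79 and 5.03 at 0.89 kb, with an interval 318 bp off. The other lost regions at gene ends were those of CHCHD2, PAM, MBNL2, MAST2, FAM20B, PDLIM5 and RASAL2. Apart from C9 and MBNL2, each of the 10 lay within 318 bp of an interval of FHT-1015.

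Start sites gave the same picture from RefSeq's own table, which holds 34961 start sites of 27195 genes and matched 15812 of 19974 protein-coding genes (chromosome 8 was not analysed here). A strict lost region covered 71 start sites of 66 genes, 46 of them protein-coding entries and 25 of long noncoding RNAs. Their windows held a median of 7 CG dinucleotides, with quartiles of 2.5 and 14, against 29 (22 and 36) in the 11886 windows of regions strict in all 6 samples and 14 over all start sites. The 39 windows of gained regions had a median of 5. In 660 windows called in all 6 samples but not strict in all 3 DMSO samples, the median was 15. Genes with a strict lost start site included ARID5B, a chromatin regulator, with DMSO folds of 10.4, 7.27 and 6.99 and FHT-1015 folds of 2.49, 3.25 and 3.02. DAB2, an endocytic adaptor, had 9.83, 6.599 and 5.97 against 3.07, 2.50 and 2.90. FGF1, a fibroblast growth factor, had 5.70, 4.08 and 3.88 against none, 2.73 and none. These 3 were chosen after their values were seen.

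Motif shares in these windows are descriptions over few sites, and the motifs given here are part of a longer searched list. Each motif was read on both strands, and matches of different motifs may overlap. CAGCTG stood in 26 of 71 strict lost windows (36.6%), in 16.0% of windows strict in all 6 samples and in 18.0% of all windows. TTGCNNAA, searched for C/EBP factors, stood in 19.7%, 5.43% and 10.4%. TGANTCA stood in 11.3%, 3.20% and 7.68%, and GGGCGG in 25.4%, 79.0% and 45.0%. In the 70 windows of lost regions the shares were 24.3% for CAGCTG, 17.1% for TTGCNNAA, 18.6% for TGANTCA and 28.6% for GGGCGG. In the 39 gained windows they were 33.3% for CAGCTG, 10.3% for TTGCNNAA, 17.9% for TGANTCA and 23.1% for GGGCGG. In 660 windows called in all 6 samples but not strict in all 3 DMSO samples, they were 21.4%, 8.33%, 9.70% and 51.5%. CAGCTG and TGANTCA were thus not particular to strict lost windows. GGGCGG itself contains CG, so its share moves with the CG count of a window. Distal regions could not be read, since genome sequence was not used here.

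Gained regions were weak and scattered. The strongest gained regions at gene ends were those of MUC17, a membrane mucin, with FHT-1015 folds of 3.86, 3.96 and 3.88 and no DMSO peak within 6137 bp, and MFSD12, with 2.98, 2.89 and 3.38 beside a touching DMSO interval. ZP3, a protein of the egg coat, had 3.00, 3.42 and 3.15 with no DMSO interval within 3603 bp. TYK2, a JAK kinase, had 2.77, 3.17 and 4.30. The others were C11orf86, NMRK2, TUBAL3, XAB2, ARL14 and PRAMEF18, a member of a family of near-identical genes whose reads cannot be placed with certainty. Only 1 of the 9 firm gained regions had a summit in all 3 FHT-1015 samples. It lay at chr16:66483626-66484125 inside BEAN1 and LOC124903698, with 3.41, 3.27 and 3.83.

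Among the 41 strict gained regions, 17 also had deposited peaks in all 3 DMSO samples. SLAMF7, an immune cell receptor, had a region 12.1 kb away with DMSO folds of 4.12, 2.76 and 3.58 and FHT-1015 folds of 5.56, 4.11 and 6.21. MSX2, a homeobox gene, had one 3.50 kb away with 2.77, 1.80 and 2.73 against 3.61, 3.11 and 4.97. The region nearest CDKN3, a phosphatase of cyclin-dependent kinases, had none, none and 3.49 against 4.25, 4.52 and 4.84. In CDKN3 and MSX2 every FHT-1015 list gave a higher fold than the DMSO lists, but folds from separate lists rank peaks only within each list. With any 1 of the 6 samples left out, strict gained regions numbered 86 to 276.

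Lost regions had 2896 different nearest genes, and 778 genes had more than 1. LPP, a LIM-domain protein of cell adhesions, was nearest to 10 lost of 21 shared regions, and PTPRN2, a receptor-like phosphatase of secretory granules, to 10 of 93. GPC6, a glypican, followed with 8 of 18, PDE4D, a cyclic AMP phosphodiesterase, with 8 of 31, and COBL with 8 of 46. BNC2 (7 of 16), MECOM (7 of 18), MKI67 (7 of 21) and PLA2G4A (7 of 88) tied for the next place. Over all regions 6.66% were lost, so PLA2G4A, at 7.95%, stood near the background, and PTPRN2, at 10.8%, was not far above it. LPP, GPC6 and PDE4D are long genes, of 738, 1191 and 1553 kb. For gained regions the leading genes were DPP6 (6 of 35), MAD1L1 (6 of 45) and PLA2G4A (6 of 65), then SOX9 (5 of 10), LYPLAL1 (5 of 24), SDK1 (5 of 27) and PTPRN2 (5 of 72). PTPRN2 and PLA2G4A, at 6.94% and 9.23% gained against 5.01% over all regions, again had many shared regions.

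By strict lost regions, AGAP1 with 7 of 16 strict shared regions and PTPRN2 with 7 of 27 led, against 7.01% over all regions. The genes of this paragraph were chosen after their values were seen. FAT3, an atypical cadherin, was nearest to 6 strict lost of 7 strict shared regions, TOP2B, a DNA topoisomerase, to 6 of 9. GPC6 had 4 of 4. TGFB2, a growth factor of the transforming growth factor beta family, had 5 of 8, and ERBB4, a receptor of the epidermal growth factor family, 5 of 12. DUSP10, a phosphatase of stress-activated kinases, had 6 of 17.

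Gene lists were read over each gene with 100 kb on each side, against the 7.01% of all strict shared regions that were strict lost. A region in such a window may lie nearer to another gene than to the listed one. Among 21 breast and epithelial transcription factors, 15 had a strict shared region, and 2 of 75 regions (2.67%) were strict lost. One lay inside ESR1, the oestrogen receptor gene, with 5.11, 4.84 and 4.96 in DMSO and no FHT-1015 summit, and the other inside TRPS1. None of the 6 strict shared regions at FOXA1, a pioneer factor, and none of the 8 at TFAP2A, a factor related to TFAP2C, was strict lost. GATA3 had no region that was strict in all 3 DMSO samples and 1 lost region 14.5 kb away, with 4.53, 3.799 and 3.81 and no FHT-1015 peak.

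Of 16 genes of epithelial structure, 4 had a strict lost region, 4 of 133 regions in all (3.01%). EPCAM, an epithelial adhesion molecule, had one 29.1 kb away with 9.61, 6.85 and 7.01 in DMSO and 3.50, 4.11 and 4.17 in FHT-1015. KRT8 and KRT18, the paired keratins of simple epithelia, share 2, of which one covers an upstream start site of KRT8 with 5.91, 4.01 and 3.50 against 3.18, none and 4.28. The MUC1 window held the other, 0.737 kb from an end of MTX1, with weak summits of 2.71, 2.14 and 2.09 in DMSO and none in FHT-1015. The strict regions around EPCAM numbered 11, 8 and 9 in DMSO and 7, 8 and 7 in FHT-1015.

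The WNT list had 5 strict lost of 166 regions (3.01%), at 3 of 17 genes. LGR5, the R-spondin receptor that marks WNT-active cells, had 2. The region 0.06 kb from one LGR5 end gave 4.46, 5.03 and 4.38 in DMSO and none, 2.56 and none in FHT-1015. The other, inside LGR5, gave 8.37, 5.85 and 7.84 against 3.58, none and none. LEF1, a factor that binds WNT target genes with beta-catenin, had an intragenic region with 5.97, 5.86 and 4.64 against none, 2.90 and none. Strict regions around LEF1 numbered 15, 12 and 12 in DMSO and 6, 8 and 7 in FHT-1015, and around LGR5 11, 8 and 7 against 5, 5 and 4. In both loci every FHT-1015 sample lay below every DMSO sample. The same held for all strict peaks, with DMSO from 48864 and FHT-1015 up to 45254. It also held for the WNT list as a whole, with 236, 199 and 204 strict regions against 185, 185 and 172. The lack of overlap was thus not particular to these loci. TCF7 had 2 strict lost of 22, of which 1 is the region at the end of SKP1 named above. AXIN2, a direct WNT target, had none.

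Feedback genes of the MAPK pathway had 5 strict lost of 93 regions (5.38%), at 4 of 15 genes. SPRY2, which restrains receptor tyrosine kinase signalling, had a region 41.7 kb away with 7.04, 4.996 and 8.39 in DMSO and 2.77, 2.90 and 3.31 in FHT-1015. SPRY4 had 8.64, 5.90 and 4.98 against 4.30, 4.17 and 4.74, where the FHT-1015 summits lay just short of strict with −log10 q of 4.47, 4.81 and 4.55, and SPRY1 had 7.07, 4.45 and 4.77 against 2.28, 2.65 and none. ETV1, an ETS factor, had 2 of 5, the stronger with 12.1, 6.03 and 8.10 against 3.91, 3.48 and 3.71. No strict lost region lay at DUSP4, DUSP5, DUSP6 or EGR1. The AP-1 family had 0 strict lost of 116 regions at 10 genes, which allows a share of up to 2.59%, and 1 strict gained region inside ATF3. In that region only replicate 2 of each group had a summit, of fold 2.46 in FHT-1015 and 2.36 in DMSO. Neither summit was strict, so the call came from intervals that overlap the region.

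YAP and TEAD genes had 5 strict lost of 72 regions (6.94%), a share close to that of all regions. YAP1, a coactivator of the Hippo pathway, had one 1.704 kb from its start site with 5.49, 3.20 and 4.46 against 3.50, none and 3.34. WWTR1, its paralogue, had one with 6.21, 5.02 and 5.17 against 3.93, 2.59 and 3.91. TEAD1, which brings both to DNA, had 2 of 9 and TEAD4 1 of 10. BAF subunit genes had 5 of 269 (1.86%), in the windows of ARID1B, SMARCD1, SMARCD3 and ACTL6B, and none in those of SMARCA4 or SMARCA2. The nearest gene end was that of GPD1 in the SMARCD1 window, CHPF2 in that of SMARCD3 and AGFG2 in that of ACTL6B. Genes of other lineages had 5 of 126 (3.97%), in the windows of MITF, PMEL, TYR, DES and PRRX1. Those in the TYR and DES windows lay nearest GRM5 and SPEG. All 8 lists lay below the 7.01% of all strict shared regions. That share includes regions over 100 kb from any gene end, of which 26.0% were strict lost, against 0.777% within 1 kb. List windows reach only 100 kb beyond a gene and were not matched for distance. The lower shares thus do not show that these genes were spared.

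Calls in the other lines were not used to choose the regions. Of the 2187 strict lost regions, 1546 (70.7%) were strict in all 3 DMSO samples of none of the 6 other lines, against 18.5% of the 23946 regions strict in all 6 DU4475 samples. The same was true of 30 of the 41 strict gained regions (73.2%), so this trait was not particular to lost regions. Few strict lost regions lie at gene ends, so the distal ones were compared alone. Beyond 10 kb, 22RV1 DMSO samples had 13.9%, 18.2% and 15.7% of the strict lost regions and 44.7%, 48.7% and 46.8% of those strict in all 6 samples. MV411 DMSO samples had 17.1%, 15.8% and 15.3% against 43.0%, 42.2% and 41.1%. In each of the 18 other-line DMSO samples the distal strict lost share was the lower one.

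In those lines, most FHT-1015 groups also called fewer of the same regions than their DMSO groups. In 22RV1, distal strict lost regions were strict in 6.70%, 6.76% and 6.19% of cases after FHT-1015, in RD in 1.20%, 0.52% and 3.09% against 8.25%, 9.05% and 8.13% in DMSO, and in MV411 in 8.53%, 8.99% and 9.39%. The groups did not overlap in 22RV1, RD, MV411, HCT116 and 92-1, and overlapped in A375. Distal regions strict in all 6 DU4475 samples fell too, to 36.7%, 39.4% and 38.8% in 22RV1 and 35.7%, 35.3% and 35.8% in MV411. In RD they fell from 41.7%, 42.4% and 39.4% to 26.5%, 19.0% and 32.2%. For these regions the groups overlapped in HCT116, 92-1 and A375. The fall was thus not confined to the lost regions. Of 194 distal strict lost DU4475 regions that all 22RV1 DMSO samples had as strict, 87 (44.8%) were strict lost there too, against 9.06% of the distal regions strict in all 6 DU4475 samples. The same shares were 52.9% (45 of 85) and 13.7% in RD, 64.2% (34 of 53) and 14.8% in 92-1, and 16.5% (20 of 121) and 1.87% in A375. MV411 gave 22.8% (50 of 219) and 6.36%, and HCT116 13 of 52 and 3.71%. Beside these shares, the percent of strict peaks among all peaks varied from 0.787% to 60.8% over the other-line lists, and its part was not tested. Lost and kept regions were both taken beyond 10 kb but were not matched for strength. At all distances, the median of the lowest DMSO percentile in DU4475 was 81.2 for strict lost regions. It was 93.2 for all strict regions shared by DMSO, and the part of strength was not tested. FHT-1015 replicates 2 and 3 of 92-1 had only 2037 and 1412 strict peaks in all.

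**Figure D5:**
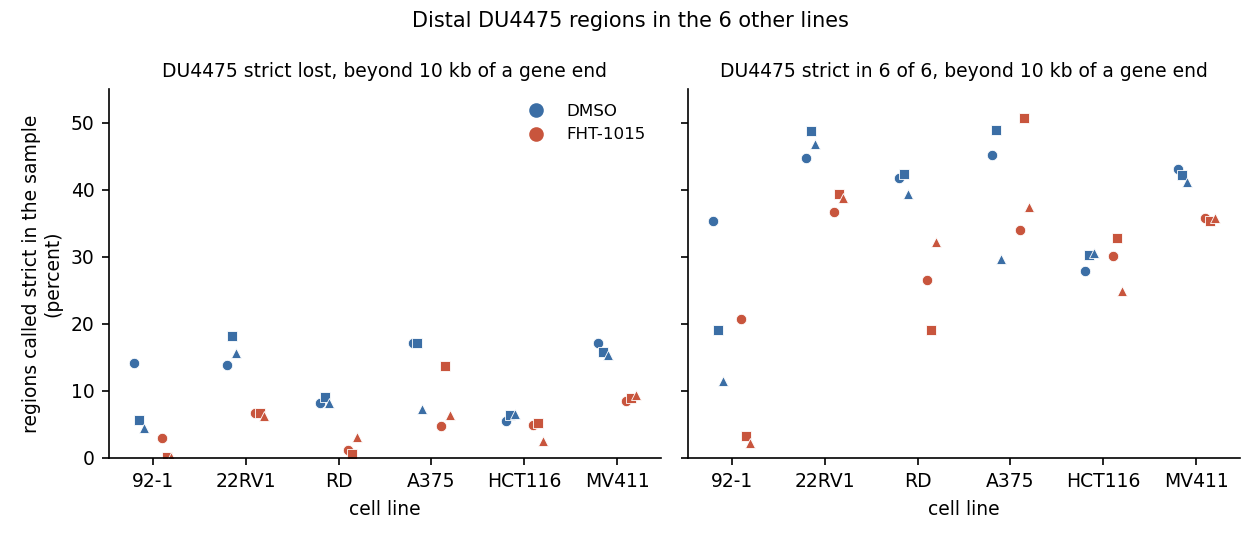
Percent of distal DU4475 regions that each sample of the 6 other lines called strict, for strict lost regions and for regions strict in all 6 DU4475 samples. Each point is 1 sample, blue for DMSO and red for FHT-1015; strict lost regions reach at most 18.2% in any sample, and the kept ones range from 2.19% to 50.7%.

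The size of the effect was set against A375 and RD, whose peak names have the same form as those of DU4475. The mean log2 number of strict peaks differed between treatments by -0.43 in DU4475, -0.27 in A375 and -1.16 in RD. Neither difference passed an exact permutation test of treatment labels within lines over 400 assignments (adjusted p = 0.81 for A375 and 0.77 for RD, over 4 comparisons). The gene-end share of strict peaks differed by 9.88 percentage points in DU4475, 14.7 in A375 and 20.2 in RD, with adjusted p = 0.81 and 0.77 by the same exact test. The permutations assume no effect in either line, and with 3 samples a group these values do not show that the lines respond alike.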

How the data were processed

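Accessible regions were measured by ATAC-seq in 3 DMSO and 3 FHT-1015 samples of DU4475. Per the submitters' processing notes, Bowtie2, Picard, MACS2, limma and HOMER and the build hg38 were used, with no roles or versions given. The deposited lists are in narrowPeak form, one per sample: a fold enrichment (ratio), the −log10 of p and the −log10 of q for each summit, with no threshold of q. The files have no headers that would state further steps.

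Regions, calls, distances to RefSeq gene ends (GRCh38.p14, chromosomes 1 to 22 and X) and promoter windows were computed with Python 3 scripts (numpy, pandas, scipy). Thinning drew recovered whole-number pileups down to 0.5 of the lowest background of the line and kept −log10 p of at least 5. Scripts were tested on simulated data. Sample values were compared by exact permutation tests. Depth is unknown, so the recovered background stands for it. Alternatives were other thresholds, overlaps, distances, thinned or shortened lists and each sample left out. Motifs in distal regions were left out without genome sequence.

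Named regions are the 12 firm lost, up to 8 firm gained (only 1 had a summit in all 3 samples), and the 10 lost and 10 gained regions at gene ends whose summits rank highest within their own lists, chromosome 8 left out. The 12 highest strict lost and strict gained regions were added by the same ranking after the data were seen. Genes by number are the 8 nearest to most lost and the 5 nearest to most gained regions, with ties, beside list genes. Members and lists were chosen with earlier results of these data known. One item that these rules would name is not reported here.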

Additional observations from a re-analysis of the deposited data

How the results depend on the processing

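The lists give no read counts, so depth limits every count of peaks through the threshold, and no paired sampling is stated. The replicate block left each mean difference as it was, with -14255 strict peaks at p = 0.25, the smallest that 3 blocks allow in an exact sign-flip test. Same-numbered samples had correlations of deviations of -0.02, 0.03 and -0.01, so the numbers do not pair the samples. The gene-end share of strict peaks turned to -1.31 percentage points in lists of the shortest length, again without overlap of the groups. The difference from A375 in log2 peak number turned from -0.16 to 0.049 with deposited lists and 0.42 with thinned ones; the causes were not tested. Leaving out 1 sample gave differences of -8529 to 27746 deposited peaks, -17201 to -9396 strict peaks, 6.49 to 11.7 points of gene-end share, and -11532 to -5784 strict peaks beyond 10 kb. It gave 5847 to 11743 lost, 3823 to 13928 gained, 2449 to 4256 strict lost and 86 to 276 strict gained regions, since fewer samples then had to agree. Thinned lists gave 1070 lost and 75 gained regions, firm calls 201 and 9, and an overlap of 250 bp 1043 gained. The gene-end share of lost regions, 4.501%, was 5.90% with strict lists, 22.9% with firm calls, 10.7% thinned, 6.72% at 250 bp and 3.88% to 5.39% with a sample left out. For gained regions, 4.04% became 22.0%, 55.6%, 32.0%, 6.33% and 3.14% to 4.91%. Of 53 other settings, 35 were labelled as unchanged. For tested differences that label needed only the same direction and the same side of 0.05 by the exact test. In DU4475 alone, 3 against 3 samples cannot pass 0.05, so only direction was checked. The difference of 9.88 points in strict gene-end share kept the label at 2.52 with q below 0.05. It also kept it at 0.19 among the 10000 strongest peaks. Only for counts and shares of regions did the label ask for a similar size. The counts of strict peaks beyond 10 kb and within 1 kb of gene ends, with their alternatives, and the restriction of the other lines to distal regions were chosen after seeing the data. Motif windows of 100 bp and of distal regions were not run.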
